A study of Ictidomys tridecemlineatus with 31 samples.

Results

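Cirbp and Rbm3, the best known cold-inducible RNA-binding proteins, and the CLK and SRPK kinases, which phosphorylate splicing factors, were followed in the kidney of the 13-lined ground squirrel (Ictidomys tridecemlineatus) across the hibernation year. The 8 genes, Cirbp, Rbm3, Clk1, Clk2, Clk3, Clk4, Srpk1 and Srpk2, were chosen by name, and all 8 were among the 12863 genes of the deposited table. Each had its own row, listed as gene14771 for Cirbp, gene21085 for Rbm3, gene21358 for Clk1, gene14162 for Clk2, gene1053 for Clk3, gene18166 for Clk4, gene2795 for Srpk1 and gene3401 for Srpk2.

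The squirrels, of both sexes and from a captive colony or a commercial supplier, carried temperature devices and were assigned to a state by body temperature and time of year, and each gave 1 library of polyadenylated kidney RNA. There were 2 homeothermic states, summer active (SA), which were fattening animals, and spring dark (SpD), which were still housed in the dark hibernaculum after their last torpor bout. The 4 hibernation states were interbout aroused (IBA), warm between torpor bouts, entrance (Ent), cooling into torpor, early arousing (EAr), still cold at the start of rewarming, and late arousing (LAr), further along in rewarming. The comparisons used 29 animals, 4 in SA and 5 in each other state, and K113 (LAr) and K137 (SA), which the study set aside from its own test, are shown apart. SA, EAr and LAr animals came from experiment 2 (Nugen Universal Plus libraries) alone, whereas IBA, Ent and SpD each held 3 animals of experiment 1 (Illumina TruSeq stranded libraries) and 2 of experiment 2.

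Cirbp and Rbm3 are small proteins with a single RNA recognition motif. In many mammalian cells their transcripts accumulate at mildly lowered temperature, and both proteins bind messenger RNAs and influence their stability, translation and polyadenylation. The CLK kinases sit in the nucleus and phosphorylate SR proteins, a family of splicing factors with arginine and serine repeats, while the SRPK kinases do so mostly in the cytoplasm. Cooling raises CLK activity in mammalian cells, and the splicing of Cirbp, Rbm3 and Clk1 itself is known to respond to temperature. Values for whole genes, as here, do not separate spliced forms.

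Levels are batch-corrected regularized log (rlog) values on the log2 scale, so that a difference of 1 is a doubling. They are not divided by transcript length and are compared between states, not between genes. Differences are coefficients of a limma model with state, sex and experiment, given with their standard error (SE), and q is the limma p-value adjusted by Benjamini-Hochberg over all 12863 genes. A gene was called differentially expressed (DE) at q under 0.001, and results that passed only q under 0.05 are named as such.

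In the test over the 6 states 3 of the 8 genes passed as DE, where 9.34% of all genes did. These were Cirbp (q = 1.97e-06), Rbm3 (q = 2.61e-05) and Clk1 (q = 4.48e-04), which ranked 82, 242 and 831 of all genes. At q under 0.05 Clk2 joined them (q = 0.0189), giving 4 of 8 against 46.1% of all genes. Clk3 (q = 0.116), Clk4 (q = 0.275), Srpk1 (q = 0.340) and Srpk2 (q = 0.317) did not pass. The span from the lowest to the highest state mean was 1.43 for Rbm3, 0.95 for Cirbp, 0.70 for Clk1 and 0.40 for Clk2, and lay between 0.092 and 0.25 for the other 4. No member passed q under 0.05 between the sexes (lowest q 0.434, Rbm3).

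**Figure D1:**
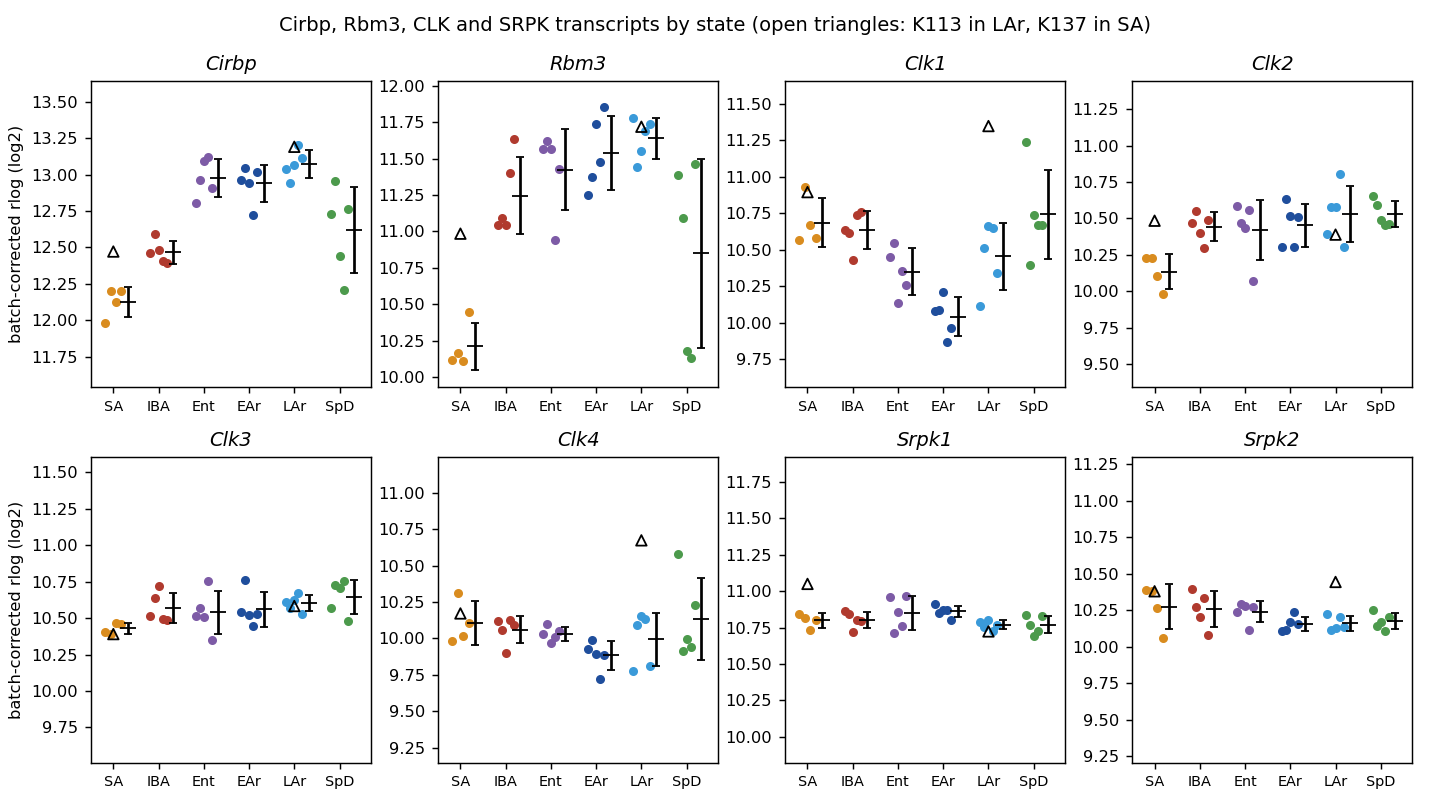
Batch-corrected rlog values (log2, vertical axis) of the 8 genes by state (horizontal axis), 1 point per animal, with the mean and SD of the 29 animals beside each group and K113 and K137 as open triangles. Cirbp stands at 12.73 or more in each Ent, EAr and LAr animal and at 12.59 or less in each SA and IBA animal of the 29, Rbm3 is lowest in SA, and Clk1 is lowest in EAr.

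Cirbp, whose protein binds RNA and is induced by cold and other stresses, was higher in Ent, EAr and LAr than in SA. In SA its level was 11.98 in K138, 12.20 in K139, 12.12 in K140 and 12.20 in K141. In IBA it was 12.46 in K1, 12.59 in K104, 12.48 in K171, 12.41 in K4 and 12.39 in K7. All IBA animals thus lay above the 4 SA animals in Cirbp level, by a fitted difference of 0.29 (SE 0.12) that did not pass (q = 0.0821). Ent animals had 12.81 (K155), 12.96 (K167), 13.09 (K2), 13.12 (K5) and 12.91 (K8). EAr animals had 12.96 (K154), 13.04 (K156), 12.94 (K157), 12.73 (K158) and 13.02 (K165), and LAr animals had 13.04 (K109), 12.94 (K111), 13.06 (K112), 13.20 (K115) and 13.12 (K116). The 15 animals of these 3 states did not overlap with the 9 SA and IBA animals. SpD was spread across that gap, with Cirbp at 12.73 in K130, 12.96 in K3, 12.44 in K6, 12.20 in K84 and 12.77 in K9.

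The mean Cirbp level was thus 12.13 ± 0.10 (SD, n = 4) in SA, 12.47 ± 0.08 (n = 5) in IBA, 12.62 ± 0.30 (n = 5) in SpD, 12.94 ± 0.13 (n = 5) in EAr, 12.98 ± 0.13 (n = 5) in Ent and 13.07 ± 0.10 (n = 5) in LAr. In this order LAr, Ent and EAr did not differ from each other (q = 0.614 and q = 0.980 between neighbours). EAr was above SpD at q = 0.0231 only, and neither SpD and IBA (q = 0.353) nor IBA and SA (q = 0.0821) were told apart. Cirbp rose from SA to LAr by 0.95 (SE 0.11, q = 2.02e-06), which is 1.93-fold (95% interval 1.66 to 2.25). It was likewise DE in EAr over SA (0.81, q = 1.26e-05) and in Ent over SA (0.79, SE 0.12, q = 2.37e-04). The SA, EAr and LAr libraries were all of 1 kit, so the EAr and LAr differences from SA do not cross experiments. The Ent call over SA, a pair that crosses experiments, was lost with experiment 2 alone (0.76, q = 0.00204) and without SA animal K138 (q = 0.00120).

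Within the torpor-arousal cycle, Cirbp was DE between LAr and IBA (0.66, SE 0.11, q = 4.43e-04), 1.58-fold higher in the rewarming animals. The pairs Ent over IBA (0.51, q = 0.00236) and EAr over IBA (0.53, q = 0.00301) passed only at q under 0.05. IBA animals came mostly from experiment 1. In a fit of experiment 2 alone the LAr over IBA difference in Cirbp was 0.51 (q = 0.0195), and neither Ent over IBA (0.32, q = 0.291) nor EAr over IBA (0.37, q = 0.0704) passed. The LAr over IBA call also fell to a q between 0.00104 and 0.00162 when any 1 of LAr animals K109, K112, K115 and K116 or IBA animals K4 and K7 was left out.

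Rbm3, a close relative of Cirbp known for its response to mild cooling, had the widest span of the 8 genes and separated SA from all hibernation states. The 4 SA animals had 10.12 (K138), 10.17 (K139), 10.11 (K140) and 10.45 (K141). The Rbm3 level in IBA was 11.05 in K1, 11.09 in K104, 11.04 in K171, 11.40 in K4 and 11.63 in K7. Even the lowest IBA animal therefore stood above the highest SA animal. Ent values of Rbm3 were 11.56 (K155), 11.62 (K167), 11.57 (K2), 10.94 (K5) and 11.43 (K8). EAr values were 11.25 (K154), 11.37 (K156), 11.74 (K157), 11.47 (K158) and 11.85 (K165), and LAr values were 11.78 (K109), 11.44 (K111), 11.55 (K112), 11.69 (K115) and 11.74 (K116). The 4 hibernation states overlapped with each other. SpD split, with K6 (10.18) and K84 (10.13) at the SA level and K130 (11.39), K3 (11.09) and K9 (11.46) inside the range of the hibernating animals.

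By mean, Rbm3 was lowest in SA at 10.21 ± 0.16 (SD, n = 4) and went through 10.85 ± 0.65 (n = 5) in SpD, 11.24 ± 0.26 (n = 5) in IBA, 11.42 ± 0.28 (n = 5) in Ent and 11.54 ± 0.25 (n = 5) in EAr to 11.64 ± 0.14 (n = 5) in LAr. None of the neighbours from LAr down to SpD differed (q between 0.152 and 0.958), and SpD and SA differed at q = 0.0438 only. Rbm3 rose from SA to LAr by 1.46 (SE 0.19, q = 1.02e-05), or 2.76-fold (95% interval 2.11 to 3.61), and from SA to EAr by 1.29 (SE 0.19, q = 4.02e-05). Ent over SA was 1.24 (SE 0.21, q = 6.49e-04). That call was lost, with q up to 0.00561, when any 1 of Ent animals K155, K167 and K2, SA animals K138, K139 and K140, or IBA animals K1, K104 and K4 was left out, and also with all 31 animals (q = 0.00739), without a term for sex (q = 0.00289) and with experiment 2 alone (q = 0.00180). IBA over SA was 1.06 (SE 0.21) and just missed DE (q = 0.00103), and it was 0.0163 with all 31 animals, where K137 (10.98) joins SA.

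SpD, the homeothermic spring state, lay between SA and LAr by mean in both of these RNA-binding proteins. Relative to LAr, SpD had lower levels of Cirbp (-0.51, q = 0.00339) and Rbm3 (-0.80, q = 0.00773), and relative to SA it had higher levels of both (0.44, q = 0.0220, and 0.66, q = 0.0438), all 4 only at q under 0.05. The same 2 animals, K84 and K6, were the lowest of the SpD group in both genes. With all 31 animals, where K137 joins SA, neither difference from SA passed (Cirbp q = 0.104, Rbm3 q = 0.265). For Cirbp the same held with weighted animals (q = 0.130). Single SpD animals also weighed on the differences from LAr and SA. Without K84 the Rbm3 difference from LAr was -0.55 (q = 0.0673) and that of Cirbp was -0.36 (q = 0.0346), and without K130 the difference from SA was 0.36 for Cirbp (q = 0.146) and 0.49 for Rbm3 (q = 0.239).

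Hibernation was also set against the active season, as the mean of IBA, Ent, EAr and LAr minus the mean of SA and SpD. Cirbp rose by 0.49 (SE 0.064, q = 4.90e-06) and Rbm3 rose by 0.93 (SE 0.11, q = 2.10e-06), and these 2 of the 8 genes were DE, against 9.73% of all genes. Clk1 was lower by 0.34 (coefficient -0.34, SE 0.076) and passed only at q under 0.05 (q = 0.00128), which makes 3 of 8 against 33.4% of all genes. This contrast mixes season with body temperature, since Ent, EAr and LAr animals were cold, cooling or rewarming. In the warm IBA state, Cirbp did not pass against SpD (q = 0.353) or SA (q = 0.0821), nor did Clk1 (q = 0.614 and q = 0.850). Rbm3 in IBA passed q under 0.05 against SA (q = 0.00103) but not against SpD (q = 0.152). Some kidney cell type markers moved with season as well. Of 20 markers in the table, 8 were lower in hibernation at q under 0.05 and 0 were higher, with a median of -0.38. Of all 12863 genes 2158 were lower and 2136 higher (median 0.00024). The mean level of the 3 proximal tubule markers was 15.61 in SA and 15.16 in SpD (15.45 without K130). It was 14.83 in IBA, 15.09 in Ent, 15.40 in EAr and 15.18 in LAr, and was not tested for season. Of these markers Slc34a1 was lower in hibernation, only at q under 0.05 (-0.85, q = 0.00163). Slc27a2 (0.067, q = 0.734) and Lrp2 (0.0069, q = 0.980) did not pass. The part of cell composition in the Cirbp and Rbm3 differences was not tested, and in bulk kidney tissue a change in the number of cells of a type cannot be told apart from a change in RNA per cell.

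**Figure D2:**
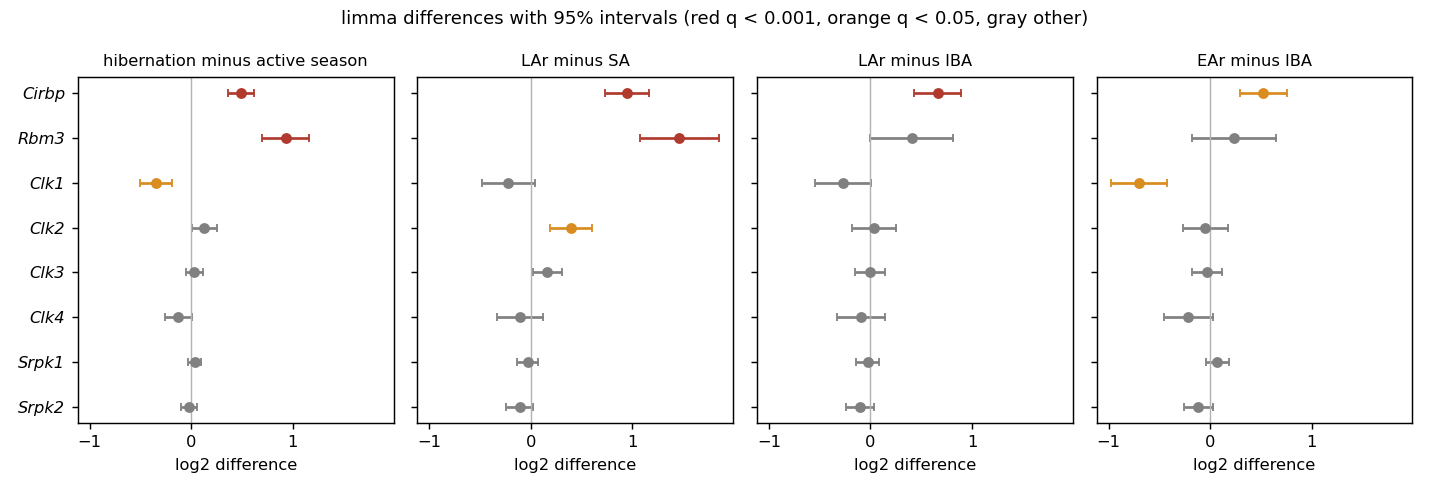
Fitted log2 differences (horizontal axis) of the 8 genes with 95% intervals in 4 contrasts, colored by q. Cirbp and Rbm3 are DE for season (0.49 and 0.93) and for LAr minus SA (0.95 and 1.46), Cirbp alone of the 8 for LAr minus IBA (0.66), and Clk1 has the lowest coefficient of EAr minus IBA (-0.70, q = 0.00128).

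By mean, Cirbp took a smaller step than Rbm3 from summer to interbout arousal. The mean level in IBA exceeded that in SA by 0.34 for Cirbp and by 1.03 for Rbm3, and the gap between these steps (-0.69) was tested on each animal's Cirbp minus Rbm3 value. That value lay between 1.75 and 2.03 in the 4 SA animals and below this range in all 5 IBA animals, down to 0.76. The exact 2-sided permutation test gave p = 0.0159, the smallest it can give here (adjusted p = 0.0238 over 6 such tests), and the difference was -0.45 in experiment 2 alone. From IBA to LAr (0.21, p = 0.254, adjusted p = 0.305) and from IBA to EAr (0.18, p = 0.397, adjusted p = 0.397) the same exact permutation test did not separate the genes, and in experiment 2 alone these differences turned to -0.037 and -0.069. All 6 tests were chosen after the values had been seen, and they have no term for sex or experiment. All SA animals were of experiment 2 and most IBA animals of experiment 1, so state and kit are partly mixed in the SA to IBA step. Over the 29 animals, after taking out state means, Cirbp and Rbm3 had a Pearson's r of 0.47 that did not pass (adjusted p = 0.393, permutation within states, 28 gene pairs).

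**Figure D3:**
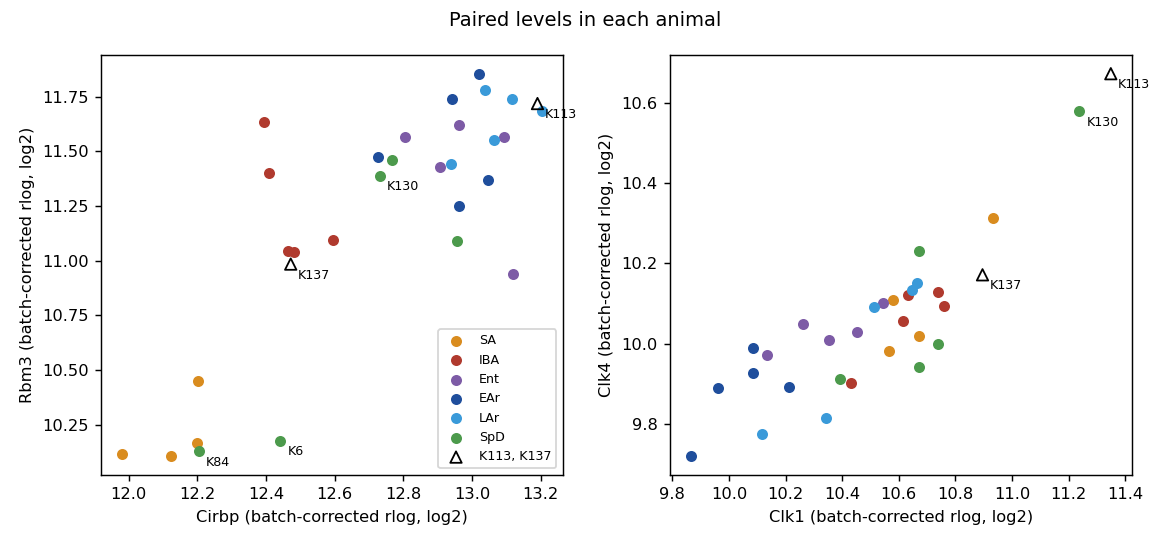
Level of Rbm3 against Cirbp (left) and of Clk4 against Clk1 (right), both axes in batch-corrected rlog (log2), 1 point per animal colored by state. IBA animals sit at Cirbp levels of 12.39 to 12.59 but Rbm3 levels of 11.04 to 11.63, SpD animals K84 and K6 lie at the SA level of Rbm3, and K113 and K130 are the highest animals in both Clk1 and Clk4.

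Clk1, the founding member of the CLK family, went the other way from the RNA-binding proteins and was lowest at the start of rewarming. Its EAr levels were 10.08 in K154, 10.08 in K156, 10.21 in K157, 9.87 in K158 and 9.96 in K165. Levels in SA were 10.56 (K138), 10.93 (K139), 10.67 (K140) and 10.58 (K141), and in IBA 10.63 (K1), 10.61 (K104), 10.43 (K171), 10.74 (K4) and 10.76 (K7). Every EAr animal was below every SA and IBA animal. By mean, Ent lay between these groups, but its animals overlapped with those of EAr and of IBA. Their Clk1 levels were 10.45 (K155), 10.55 (K167), 10.13 (K2), 10.35 (K5) and 10.26 (K8). LAr animals were at 10.12 (K109), 10.51 (K111), 10.67 (K112), 10.65 (K115) and 10.34 (K116), and SpD animals at 11.24 (K130), 10.39 (K3), 10.74 (K6), 10.67 (K84) and 10.67 (K9). K130 stood apart at the top of SpD.

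The means of Clk1 were 10.74 ± 0.31 (SD, n = 5) in SpD, 10.69 ± 0.17 (n = 4) in SA, 10.64 ± 0.13 (n = 5) in IBA, 10.46 ± 0.23 (n = 5) in LAr, 10.35 ± 0.16 (n = 5) in Ent and 10.04 ± 0.13 (n = 5) in EAr. No neighbours in this order differed (q between 0.161 and 0.971), but the ends did. EAr was below SA by a coefficient of -0.65 (SE 0.13, q = 7.12e-04), and SpD was above EAr by 0.80 (SE 0.13, q = 3.18e-04). Without K130 the SpD mean was 10.62 ± 0.15 (n = 4) and the SpD over EAr difference was 0.62 (q = 0.00691), and it also missed DE without EAr animals K158 (q = 0.00117) or K165 (q = 0.00106), with all 31 animals (q = 0.00308) and with weighted animals (q = 0.00423). The EAr against SA call was lost when any 1 of the 9 animals compared was left out (q between 0.00118 and 0.00525), with the coefficient between -0.71 and -0.56, with all 31 animals (q = 0.00199) and with experiment 2 alone (q = 0.00138). EAr against IBA (-0.70, SE 0.13, q = 0.00128) passed only at q under 0.05, and in a fit of experiment 2 alone it did not pass (-0.51, q = 0.0680). The step from Ent to EAr (-0.41, q = 0.395) and the step from EAr to LAr (0.43, q = 0.158) did not pass. The call of Clk1 across states was itself lost with all 31 animals (q = 0.00301), with experiment 2 alone (q = 0.00259) and without any 1 of EAr animals K154, K156, K158 and K165 (q up to 0.00153).

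By mean, Clk4, whose protein is closest to Clk1 in the family, moved less than Clk1 from IBA to EAr, and Clk2 hardly moved. From IBA to EAr, the mean level differed by -0.59 for Clk1 and by -0.18 for Clk4, and each animal's Clk1 minus Clk4 value ran from 0.074 to 0.32 in EAr and from 0.51 to 0.67 in IBA. The difference between the 2 steps was -0.42 (exact 2-sided permutation p = 0.00794, the smallest this test can give, adjusted p = 0.0238). Against SA the difference was also -0.42 (exact permutation p = 0.0159, adjusted p = 0.0238), and for Clk1 against Clk2 from IBA to EAr it was -0.60 (exact permutation p = 0.00794, adjusted p = 0.0238). These tests were chosen after the values had been seen. They have no term for sex or experiment, and the IBA animals came mostly from experiment 1. In experiment 2 alone the differences from IBA to EAr were -0.38 against Clk4 and -0.46 against Clk2. Within states, on the other hand, Clk1 and Clk4 varied together from animal to animal. After taking out state means Pearson's r was 0.86 over 29 animals (permutation within states, p = 1e-05, the smallest the 100000 resamples can give, adjusted p = 2.8e-04 over 28 gene pairs). Spearman's rho was 0.81 (permutation within states, p = 3e-05, adjusted p = 8.4e-04). Pearson's r was 0.77 without the 2 animals farthest from the median, 0.78 without K130, 0.68 in the 9 animals of experiment 1 and 0.91 in the 20 animals of experiment 2. No other pair of the 8 genes passed an adjusted p of 0.05. Clk1 and Clk4 have similar sequences, and the sharing of reads between them was not tested.

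Clk2, which encodes another SR protein kinase of the family, was lowest in SA, at 10.14 ± 0.12 (SD, n = 4), and its means in the other 5 states lay between 10.42 and 10.53. Compared with SA, its level was higher by 0.36 in IBA (q = 0.0214), 0.34 in Ent (q = 0.0400), 0.32 in EAr (q = 0.0239), 0.40 in LAr (q = 0.00506) and 0.45 in SpD (q = 0.0157), all only at q under 0.05. The 4 SA animals, from 9.98 to 10.23, lay below all animals of IBA, EAr, LAr and SpD and below all Ent animals but K8 (10.07). With all 31 animals, in which K137 (10.48) is counted in SA, Clk2 no longer passed across states (q = 0.0796), and the same held without SA animal K141 (q = 0.0897). Season did not separate Clk2 (0.13, q = 0.0989).

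Clk3, Clk4 and the SRPK kinases stayed within narrow ranges. Clk3 had its lowest mean in SA, 10.43 ± 0.04 (SD, n = 4), and its highest in SpD, 10.65 ± 0.12 (n = 5), and that pair alone of its 15 passed q under 0.05 (0.24, q = 0.0405). Clk4 means ran from 9.88 ± 0.10 (n = 5) in EAr to 10.13 ± 0.28 (n = 5) in SpD. Clk4 had its lowest mean in the same state as Clk1, but none of its 15 pairs passed q under 0.05 in limma, and 2 had an unadjusted p under 0.05. Srpk1, whose protein loads SR proteins with phosphate before they enter the nucleus, lay between 10.77 ± 0.03 (n = 5) in LAr and 10.86 ± 0.04 (n = 5) in EAr. Srpk2, its close relative, lay between 10.16 ± 0.05 (n = 5) in EAr and 10.27 ± 0.15 (n = 4) in SA. For the SRPK genes 0 of 15 pairs passed q under 0.05, and 0 had an unadjusted p under 0.05. The 95% intervals bound what could have been missed, and for LAr minus SA they were -0.14 to 0.075 for Srpk1 and -0.24 to 0.024 for Srpk2.

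Counted over the 15 pairs of states, 9 of 120 gene comparisons were DE (1.62% over all genes and pairs) and 28 passed q under 0.05 (14.1%), all of them in Cirbp (4 and 10), Rbm3 (3 and 8), Clk1 (2 and 4), Clk2 (0 and 5) and Clk3 (0 and 1). EAr against SA held 3 DE members (Cirbp and Rbm3 higher, Clk1 lower), and 4.49% of all genes were DE there. LAr against SA held 2 (5.47% of all genes), Ent against SA 2 (0.855%), LAr against IBA 1 (1.43%) and SpD against EAr 1 (1.98%). IBA against SA held 0 DE members, 2 at q under 0.05 and 4 at an unadjusted limma p under 0.05, with 3.15% and 22.9% of all genes DE and past q under 0.05. SpD against SA held 0 DE members and 4 at q under 0.05 in limma (Cirbp, Rbm3, Clk2 and Clk3) and the same number at an unadjusted p under 0.05, where 0.0544% of all genes were DE and 10.5% passed q under 0.05. No member passed q under 0.05 in limma between Ent and EAr (0.257% of all genes), Ent and LAr (0.762%), EAr and LAr (0.575%) or IBA and SpD (11.9%), and 1, 0, 1 and 1 members had an unadjusted p under 0.05 in these pairs. The animals of a pair of states did not overlap for 4 of 8 members in IBA against SA (18.8% of all genes), 4 in EAr against SA (26.4%), 4 in LAr against SA (29.2%) and 2 in EAr against IBA (13.4%).

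K113 and K137 differed from their groups in different members. K113, of the LAr group, was inside the range of the other 5 LAr animals for Cirbp (13.19) and Rbm3 (11.72) but stood above them for Clk1 (11.35 against 10.12 to 10.67) and Clk4 (10.67 against 9.77 to 10.15). It was also above them in Srpk2, at 10.44 against 10.11 to 10.22, and just below them in Srpk1 (10.72 against 10.73 to 10.80). K137, of the SA group, was instead above the other 4 SA animals in Cirbp (12.47), Rbm3 (10.98) and Clk2 (10.48 against 9.98 to 10.23). Its Srpk1 level of 11.05 was the highest of all 31 animals. K130, an SpD animal that remained in the comparisons, had the second highest level of both Clk1 (11.24) and Clk4 (10.58) after K113. These 3 animals also had high levels of the 2 genes listed here as inner medulla markers, Slc14a2, a urea transporter, and Aqp3, a water channel. The mean of the pair was 12.83 in K113 (8.43 to 8.91 in the other LAr animals), 13.59 in K137 (8.90 to 11.29 in the other SA animals) and 13.06 in K130 (9.99 to 12.08 in the other SpD animals). Their proximal tubule marker means were low, at 14.15, 14.57 and 13.99, against at least 15.04, 15.44 and 14.89 in the other animals of their groups. The part of the piece of kidney sampled in their kinase levels was not tested.

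The SR proteins, which CLK and SRPK kinases phosphorylate, were represented by 12 of 14 listed genes, and 2 of these were DE across states and 7 passed q under 0.05, against 9.34% and 46.1% of all genes. The first was Srsf5 (q = 1.22e-05), a splicing activator. It was between 13.25 and 13.37 in the 5 IBA animals and between 12.65 and 13.47 in the 4 SA animals. The 5 Ent animals ran from 13.73 to 13.90, the 5 EAr animals from 13.80 to 14.05 and the 5 LAr animals from 13.91 to 14.09, so that, as with Cirbp, the Ent, EAr and LAr animals lay above all SA and IBA animals. Srsf5 rose in LAr over SA by 0.87 (SE 0.12, q = 2.11e-05), in LAr over IBA by 0.79 (SE 0.13, q = 2.18e-04) and in EAr over IBA by 0.72 (SE 0.13, q = 6.14e-04). SpD lay between, from 13.29 (K130) to 13.91 (K3).

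Srsf3, the smallest SR protein, was the other DE gene (q = 4.43e-05) and went in the opposite direction. Its mean was 11.69 ± 0.18 (SD, n = 5) in IBA, 11.19 ± 0.12 (n = 5) in Ent and 11.21 ± 0.08 (n = 5) in EAr. Srsf3 fell from IBA to Ent by 0.50 (SE 0.070, q = 1.88e-04), and its EAr minus IBA coefficient was -0.51 (SE 0.079, q = 2.07e-04). The third lowest q was that of Srsf11 (q = 0.00467), with LAr over SA by 0.41 (q = 0.00109). As a list, the SR proteins had 3 members higher and 1 lower in LAr than in SA at q under 0.05 (median 0.081), and 1 higher and 2 lower in EAr than in IBA (median -0.14), where of all 12863 genes 1765 were higher and 1762 lower in LAr than in SA (median -0.0041), and 1049 higher and 1230 lower in EAr than in IBA (median -0.0031).

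**Figure D4:**
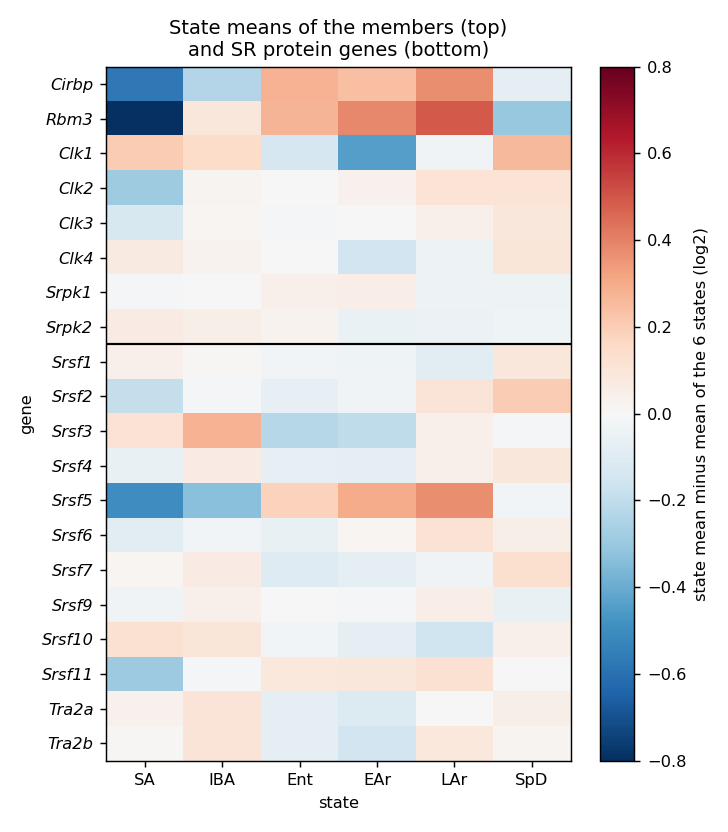
State means minus the mean of the 6 states (log2, color scale) for the 8 genes (top) and 12 SR protein genes (bottom), with states as columns. Srsf5 follows the same order of low SA and IBA and high Ent, EAr and LAr as Cirbp, while Srsf3 is highest in IBA (11.69) and lowest in Ent (11.19).

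Of 13 further kinases related to the CLK and SRPK families, 11 were in the table, 1 was DE across states and 2 passed q under 0.05, where the shares of all genes were 9.34% and 46.1%. The DE kinase was Dyrk1b (q = 3.37e-04), which was 10.34 ± 0.10 (SD, n = 5) in EAr and 10.79 ± 0.16 (n = 5) in SpD, and its SpD minus EAr difference was 0.57 (SE 0.099, q = 4.54e-04). Like Clk1, it had its lowest mean in EAr, and it was no longer DE across states without SpD animal K130. Cdk11b (q = 0.0285) had its largest difference in IBA over SA (0.39, q = 0.00694), and Dyrk2 (q = 0.0629) did not pass. Among cold-shock domain and other RNA-binding proteins, 12 of 14 were in the table, and 0 were DE across states in limma, with 8 past q under 0.05 (46.1% of all genes) and 10 at an unadjusted p under 0.05. Hnrnpa1 (q = 0.00179), which binds RNA and regulates splicing, had an LAr over SA difference of 0.34 (SE 0.065, q = 5.35e-04), Hnrnph1 (q = 0.00502) was lower in Ent than in IBA (-0.37, q = 0.00520), and Ybx2 (q = 0.00576), a cold-shock domain protein, was higher in Ent than in SA (0.60, q = 0.00411). In this list 4 members were higher and 0 lower in LAr than in SA at q under 0.05 (median 0.099), against 1765 higher and 1762 lower of all 12863 genes.

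The genes whose values followed each member most closely over the 29 animals were also listed, by Pearson's r across animals of different states and as a description only. For Cirbp they were Asb3 (r = 0.924), Elmo3 (r = 0.924) and LOC110598386 (r = 0.911), and for Rbm3 they were Ppp3cc (r = 0.881), Fndc4 (r = 0.854) and Riok1 (r = 0.852). Clk1 was followed by Ier3 (r = 0.872), Pdxp (r = 0.857) and Kctd13 (r = 0.850), and Clk4 by Clk1 (r = 0.824), Prpf38b (r = 0.782) and Arid4a (r = 0.778). Clk2 was nearest to Cdan1 (r = 0.935), Capn10 (r = 0.928) and Snrnp70 (r = 0.916). The closest genes of the members with narrow ranges reached lower values, with Hoxa9 (r = 0.795), Tpra1 (r = 0.793) and CUNH6orf136 (r = 0.774) for Clk3, Gipc2 (r = 0.787), Znf652 (r = 0.755) and Ibtk (r = 0.747) for Srpk1, and Socs7 (r = 0.793), Trip12 (r = 0.779) and Rbm39 (r = 0.773) for Srpk2.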

How the data were processed

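The authors sequenced polyadenylated kidney RNA in 2 experiments, used cutadapt to trim reads and HISAT2 to take out mitochondrial ones, quantified HiC_Itri_2 transcripts with Salmon and summed them to genes. The deposited log2 values are rlog values from DESeq2 from which the authors removed the batch effect with limma, and they run from 4.11 to 19.79 over 31 animals. Counts and depths are not analysed here, so the depth is unknown and precision rests on how far animals of a state lie apart.

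The authors tested counts with DESeq2. Here limma 3.58.1 (R 4.3.3) was fitted instead to all 12863 genes in 29 animals, with state, sex and experiment, an intensity trend, and p-values adjusted by Benjamini-Hochberg for each contrast. The degree of freedom spent on batch removal is not counted. The model was tested on simulated data with independent noise and no other difference between states, sexes or experiments. There, 83% of 200 genes changed by log2 1 in LAr were recovered for LAr minus SA. Smaller changes, such as those of most members, were not simulated. Exact permutation tests used scipy 1.17.1 (Python 3.11.15), within-state permutations were drawn with numpy, and figures used matplotlib 3.10.9.

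The members, the gene lists and the markers were chosen with earlier results of these data known. Named genes are the 8 members, the 3 lowest q of each list and the 3 genes of highest r with each member. The 2 genes listed as inner medulla markers and the 3 listed as proximal tubule markers are also named. All 8 symbols matched RefSeq (mIctTri1.hap1), a different assembly, so no positions are given. Of 25 markers, 20 were in the table (not Alas2, Hbb, Cyp11b1, Cyp17a1 or Star). Animals are the replicates. Alternatives were all 31 animals, no term for sex or experiment, no trend, a robust prior, animal weights, median centering, genes with a mean of at least 8, experiment 2 only, q under 0.05, and each animal left out.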

Additional observations from a re-analysis of the deposited data

Results flagged for a closer look

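Groups of a gene and a state were examined in the 29 animals, and SA and LAr once more with K137 and K113 included, 64 groups in all. Of these, 3 held an animal far from the others of its group, and chance marks about 1 in 20 such groups. In Rbm3, the Ent animal K5 was at 10.94, with the nearest Ent animal at 11.43. In Clk2, the Ent animal K8 was at 10.07, with the nearest at 10.44. In Srpk2, the LAr animal K113, which was not part of the comparisons, was at 10.44, with the nearest at 10.22.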

How the results depend on the processing

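No paired analysis was possible because each animal carries its own number and no state shares a number with another. The count of 3 DE members across states was 2 to 3 when 1 animal was left out, and the count of 2 for season was 2 to 3. The 9 DE comparisons of members over 15 pairs of states were 5 with experiment 2 only, 28 at q under 0.05 and 6 to 11 with 1 animal left out. The count of SR proteins was 1 with experiment 2 only, 7 at q under 0.05 and 2 in each fit with 1 animal left out. For the other splicing kinases it was 0 without a term for experiment, 0 with experiment 2 only, 0 without SpD animal K130, 2 at q under 0.05, and 0 to 1 with 1 animal left out. For the other cold-shock and RNA-binding proteins it was 4 with weighted animals, 8 at q under 0.05, 1 without SpD animal K130, 1 without IBA animal K171, and 0 to 1 with 1 animal left out. Experiment 2 only leaves fewer animals and a single kit, and the cause of these moves was not tested. For single genes, the direction and the side of q = 0.001 were kept in 1423 recomputed values, 43 no longer passed and 16 newly passed, and 0 reversed. This tally does not follow q = 0.05. A result that had passed only q under 0.05 counts as kept even where it was lost, as with Cirbp in Ent over IBA with experiment 2 alone (limma q = 0.291). Centering moved the median of all genes by at most 0.037. With depth unknown, low values could not be weighed by their counts.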

Other observations

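Among the 28 pairs of the 8 genes, some relations within states leaned negative without passing adjustment. Clk3 and Srpk1 had a Pearson's r of -0.59 over 29 animals (permutation p = 0.00678, adjusted p = 0.0949), which was -0.86 in the 9 animals of experiment 1 and -0.40 in the 20 of experiment 2. Rbm3 and Clk3 had an r of -0.55 (permutation p = 0.0121, adjusted p = 0.113).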
